A study of Mus musculus with 20 samples.

Results

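In a pair of mouse libraries labelled fresh-frozen E10.5 embryo, rabbit IgG replaced a specific antibody in MAPIT-seq, an assay that marks RNA near an antibody by base editing. These 2 IgG libraries were set against 2 untreated libraries of the same label, so 4 of the 20 libraries of the series enter the comparison. Members were all unique editing sites of the fresh-frozen table with 10 or more reads in each of the 4 libraries, which left 106920 of 150516 sites, and the same 4 libraries of the fresh-frozen expression table. Of the kept sites, 46837 were A-to-G and 60083 were C-to-T.

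The IgG libraries came from wild-type C57BL/6J material treated with 0.2% formaldehyde, then with rabbit IgG in the place of the primary antibody, then with a secondary antibody raised in guinea pig against rabbit, and with the fusion protein rAPOBEC1-pAG-hADAR2. The untreated libraries came from the same strain and genotype and are labelled with no fixation, no primary or secondary antibody and no fusion. Fixation, the antibodies and the fusion protein therefore changed together, and their parts in any difference cannot be told apart. The labels give 2 replicates per group and do not say whether these are separate embryos or litters. The spread between these libraries, which the expression p-values measure, may thus be technical. Editing p-values rest on read counts and on a spread drawn toward that of other genes or sites and never set below counting error. A very small editing p-value therefore does not stand for many replicates. RNA was extracted with TRIzol in both groups.

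The expression values did not match a whole embryo at the labelled stage. Gria2, a glutamate receptor subunit of neurons, ranged over 248 to 420 TPM in the 4 libraries, against 0.717 to 1.72 TPM in the IgG and untreated libraries of the fixed E10.5 embryo and 71.4 to 97.6 TPM in the E16.5 brain libraries. Myl7, a heart muscle gene, ranged over 0 to 10.7 TPM here and 1808 to 3099 TPM in the fixed embryo. Hoxb9, a trunk patterning gene, was at 0 to 0.445 TPM here and at 438 to 692 TPM in the fixed embryo. The libraries are therefore called by their labels, IgG and untreated, with no tissue name.

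Editing in this assay comes from the fusion's deaminase domains. APOBEC1 converts cytidine to uridine, read as C-to-T, and favours an adenosine or uridine just 5′ of its target. ADAR2 converts adenosine to inosine, read as A-to-G, and is known to favour a uridine or adenosine and to disfavour a guanosine just 5′ of its target. Protein A/G binds immunoglobulin, so with a non-specific IgG the fusion is held by antibody that has no chosen target, and cells also carry their own ADAR enzymes, which edit neuronal receptor messages without any treatment.

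The sites that differed most between IgG and untreated libraries give a view of the sequence at the edited base. The 7 nuclear A-to-G sites named by rule for the largest changes are shown first, then the A-to-G site that passed the main test, then the 3 A-to-G sites with the largest change in the lower direction. Each run is the 21 bases of the annotated transcript around the site, 5′ to 3′ on the transcript strand, with the edited adenosine and its neighbours on both sides in capitals. Sequences are from GENCODE M21 transcripts and positions are on mm10.
Stox2, chr8:47180706, minus strand, 3′ UTR: catgccagtTAGgagtagagc
Bcl11b, chr12:107914134, minus strand, 3′ UTR: aggagctggTAAgagttctgt
Map1b, chr13:99422958, minus strand, 3′ UTR: ccctgtcctCAGtgatggcca
Plxna1, chr6:89316778, minus strand, 3′ UTR: ttggacagcTAGacagagcag
Rian, chr12:109635952, plus strand, non-coding exon: atcttgtttTAGggactgtgt
Mest, chr6:30747382, plus strand, 3′ UTR: gtgacatgaTAAtcctctcat
Nme1, chr11:93959375, minus strand, 3′ UTR: ctggttttcTACctgcttact
Basp1, chr15:25363911, minus strand, 3′ UTR: attgtctgaAAGtacatcatc
Mical3, chr6:120931925, minus strand, 3′ UTR, lower in IgG: gggacaggaGAGtagaggtgg
Stx18, chr5:38137516, plus strand, 3′ UTR, lower in IgG: gcagcagtgGAGctgatggtg
Abce1, chr8:79683971, minus strand, 3′ UTR, lower in IgG: gtgcagggaAATagcaataca

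Both kinds of editing were higher in IgG libraries, A-to-G by more than C-to-T. Over all kept sites, the edited share of covering reads was 0.646 and 0.670% in the IgG libraries, against 0.387 and 0.363% in the untreated libraries. The groups did not overlap, and the IgG mean of 0.658 ± 0.0174% was 1.76-fold the untreated mean of 0.375 ± 0.0172% (SD, n = 2 each). The anti-G3BP1 libraries of the same table had 1.23 and 1.26%. Of the kept sites, 60.7% had 2 or more edited reads in an anti-G3BP1 library. A site could thus be listed through those reads, which can raise the anti-G3BP1 share, so the levels are not a like comparison of antibodies.

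A-to-G sites carried an edited share of 0.737 and 0.803% in IgG libraries, against 0.382 and 0.359% in untreated libraries, a 2.08-fold difference. C-to-T sites carried 0.576 and 0.570% in IgG libraries, against 0.391 and 0.366% in untreated libraries, a 1.52-fold difference. For both types each IgG library lay above each untreated library. Counting error was small beside these gaps: the 95% Wilson interval of the A-to-G share ran over 0.727 to 0.748% in the first IgG library and over 0.375 to 0.388% in the first untreated one, and such intervals cover counting error only. With 2 libraries a group, the exact two-sided permutation test gave p = 0.333 for each share, the smallest value that 6 arrangements allow, so no share could pass a 0.05 threshold.

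Put as a ratio within each library, the A-to-G share was 1.28 and 1.41 times the C-to-T share in IgG libraries and 0.976 and 0.981 times it in untreated libraries. At the anti-G3BP1-listed sites described next, the ratio was 2.82 and 3.02 in IgG libraries and 1.36 and 1.35 in untreated libraries. The nearly equal levels of both changes in untreated libraries were thus seen over all kept sites and not at this subset.

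How a site entered the table matters for these levels. Of the kept sites, 98.2% had 2 or more edited reads in at least 1 of the 6 libraries of the table (IgG, untreated and anti-G3BP1), so a site with edited reads in just 1 of the 4 libraries could be listed through that library's own reads. Sites with 2 or more edited reads in an anti-G3BP1 library, 64936 or 60.7% of those kept, have a listing that does not rest on the 4 libraries compared. This subset was chosen after the data had been seen, and it is given beside all kept sites below as the anti-G3BP1-listed sites. It was chosen on editing by the same fusion protein, held by another antibody.

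At the 30549 anti-G3BP1-listed A-to-G sites, the edited share was 0.549 and 0.614% in IgG libraries, against 0.189 and 0.185% in untreated libraries, a 3.11-fold difference. At the 34387 anti-G3BP1-listed C-to-T sites, it was 0.195 and 0.204% in IgG libraries, against 0.139 and 0.137% in untreated libraries, a 1.45-fold difference. A-to-G editing was thus further above the untreated level at these sites, and C-to-T editing was about as far above it as over all kept sites. At the other kept sites, both types were 1.62-fold higher in IgG libraries. These sites were mostly listed through reads of the libraries compared, so this fold depends on how sites were listed. Among them, 83.7% of A-to-G and 85.2% of C-to-T sites had edited reads in just 1 of the 4 libraries. Edited reads in both IgG and neither untreated library were seen at 346 of these A-to-G and 541 of these C-to-T sites. The reverse pattern was seen at 325 and 557.

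**Figure D1:**
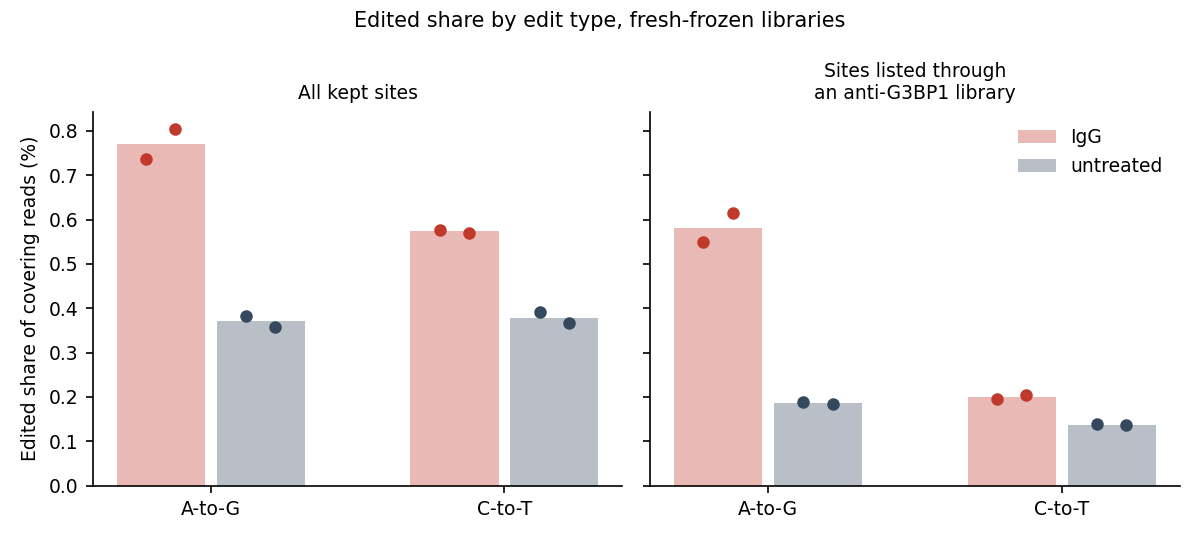
Edited share of covering reads, in %, by edit type over all kept sites (left) and over sites listed through an anti-G3BP1 library (right). Bars are group means and points are libraries, IgG left of untreated; A-to-G over all kept sites averages 0.770% in IgG and 0.370% in untreated libraries.

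Recurrence across libraries was higher in IgG libraries for A-to-G, and for C-to-T it was near even over all kept sites and higher in IgG libraries at anti-G3BP1-listed sites. Among all kept A-to-G sites, 1386 had edited reads in both IgG libraries and in neither untreated library, and 484 had the reverse pattern. Among C-to-T sites the numbers were 760 and 694. At anti-G3BP1-listed sites they were 1040 and 159 for A-to-G, and 219 and 137 for C-to-T. Sites with edited reads in all 4 libraries numbered 270 for A-to-G and 106 for C-to-T.

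The base before the edited adenosine separated the groups most. With T at that position, the A-to-G share was 0.894 and 1.02% in IgG libraries, against 0.251 and 0.235% in untreated libraries, a 3.94-fold difference. With G there, it was 0.684 and 0.726% in IgG libraries, against 0.555 and 0.519% in untreated libraries, a 1.31-fold difference. The contexts were ordered differently in the groups: adenosines after T carried the highest share of the 4 contexts in IgG libraries and the lowest in untreated libraries, where adenosines after G were highest.

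Adenosines after A and after C lay between these, at 1.91-fold and 1.72-fold. At anti-G3BP1-listed sites the fold was 5.41 after T, with 0.779 and 0.901% in IgG libraries against 0.156 and 0.154% in untreated libraries, and 1.40 after G. The triplet TAG, present at 4342 of those sites, had 0.880 and 1.02% in IgG libraries against 0.143 and 0.140% in untreated libraries, a 6.72-fold difference. The triplet GAT differed by 1.15-fold. No naming rule covered the triplets given here and below, and the other triplets are not reported here.

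For C-to-T, cytidines after A stood apart. Their edited share was 0.436 and 0.457% in IgG libraries, against 0.190 and 0.173% in untreated libraries, a 2.46-fold difference. After G, the share was 0.644 and 0.671% in IgG libraries, against 0.570 and 0.547% in untreated libraries, a 1.18-fold difference. At anti-G3BP1-listed sites the triplet ACA had 0.131 and 0.155% in IgG libraries against 0.0499 and 0.0474% in untreated libraries, a 2.94-fold difference. Levels after A were the lowest of the 4 contexts in untreated libraries.

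**Figure D2:**
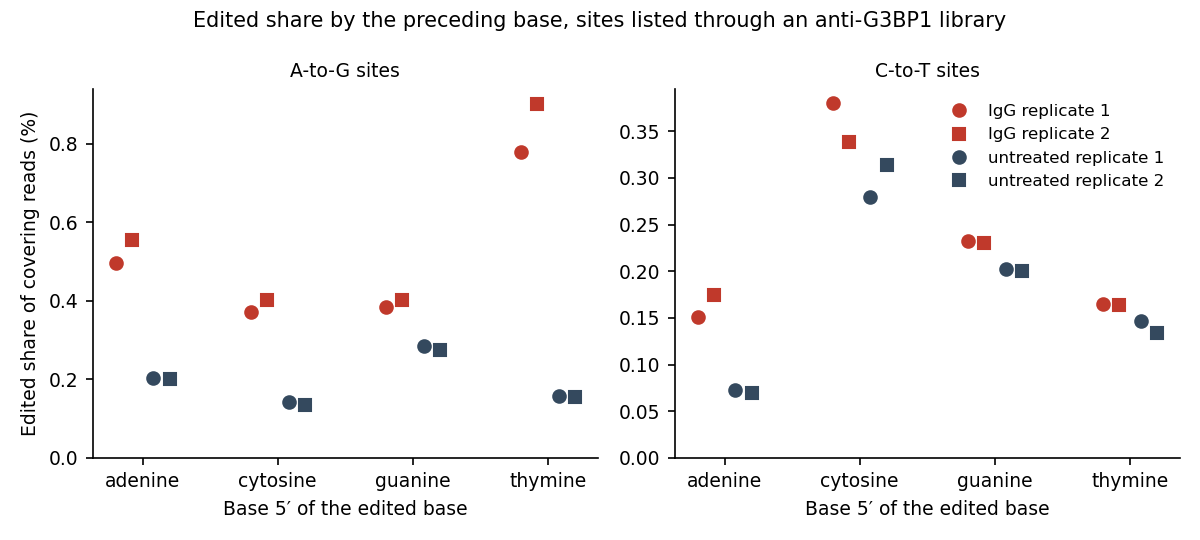
Edited share of covering reads, in %, at anti-G3BP1-listed A-to-G sites (left) and C-to-T sites (right) by the base 5′ of the edited base; each point is 1 library, IgG left of untreated, and the vertical scales differ. The widest gap is at adenosines after thymine, 0.779 and 0.901% in IgG against 0.156 and 0.154% in untreated libraries.

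By transcript region, the A-to-G share in 3′ UTRs was 0.679 and 0.768% in IgG libraries, against 0.327 and 0.308% in untreated libraries, a 2.28-fold difference. In coding sequence it was 0.799 and 0.784% in IgG libraries, against 0.440 and 0.415% in untreated libraries, a 1.85-fold difference. Exons of non-coding transcripts had 1.33 and 1.38% in IgG libraries, against 0.974 and 0.977% in untreated libraries, a 1.39-fold difference. Non-coding exons therefore had the highest level in both groups and the smallest fold. Classes by region, by the base before and by the base after regroup the same sites and reads. They therefore do not count as separate results. All 22 classes by region and neighbouring base, 11 for each edit type, were higher in both IgG libraries than in both untreated libraries. At anti-G3BP1-listed sites 21 of 22 were. The exception was C-to-T in non-coding exons, with 0.629 and 0.523% in IgG libraries against 0.70 and 0.842% in untreated libraries.

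Site by site, a quasi-binomial logistic model over the 54446 sites with an edited read called 1 site higher (0.00184%) and 1 lower (0.00184%) in IgG libraries at an adjusted p under 0.05. The likelihood-ratio F test of that same model, added after the data had been seen because the main Wald test is weak where a group has no edited read, called 96 sites higher (0.176%) and 9 lower (0.0165%). Of the 96, 90 were A-to-G and 6 were C-to-T. With any 1 of the 4 libraries left out, neither test called a site. At the 13999 tested sites listed through an anti-G3BP1 library, the F test called 191 higher (1.36%) and 14 lower (0.1%).

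The site that passed the main test lies in the 3′ UTR of Basp1, a membrane protein of axons and growth cones. It had 24 of 425 and 26 of 440 reads edited in IgG libraries, against 5 of 717 and 13 of 711 reads in untreated libraries. The shares were 5.65 and 5.91% in IgG libraries and 0.697 and 1.83% in untreated libraries, and the groups did not overlap. The log2 odds ratio was 2.24 with an SE of 0.40, and the adjusted p of the quasi-binomial model was 0.00115.

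The site that was lower lies in mt-Rnr2, the large mitochondrial ribosomal RNA, at chrM:1207. It is a C-to-T site with 40 of 1499 and 9 of 831 reads in IgG libraries, against 21 of 264 and 21 of 367 reads in untreated libraries. Both untreated libraries, at 7.95 and 5.72%, were above both IgG libraries, at 2.67 and 1.08%. The log2 odds ratio was -1.73 with an SE of 0.32 and an adjusted p of 0.00115.

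The remaining named sites rest on the F test, and each of the next 4 had no edited read in either untreated library. A floor of 3 reads over both untreated libraries together gives a lower bound for each fold. At the Stox2 site shown above, 20 of 130 and 23 of 166 reads were edited in IgG libraries, against 0 of 368 and 0 of 276 reads in untreated libraries, at least 31.2-fold higher (adjusted p = 4.36e-19, F test of the quasi-binomial model). Stox2 encodes a winged-helix protein, and its site was edited in 17.9 and 19.3% of reads in the anti-G3BP1 libraries.

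Bcl11b encodes a zinc-finger transcription factor of deep-layer cortical and striatal neurons. Its site had 16 of 122 and 20 of 125 edited reads in IgG libraries, against 0 of 369 and 0 of 246 reads in untreated libraries, at least 29.9-fold higher. Plxna1 encodes a semaphorin receptor that guides axons. Its site had 38 of 329 and 66 of 391 edited reads in IgG libraries, against 0 of 242 and 0 of 267 reads in untreated libraries, at least 24.5-fold higher.

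Map1b encodes a microtubule-associated protein of growing axons. Its 3′ UTR site had 28 of 244 and 14 of 293 edited reads in IgG libraries, against 0 of 730 and 0 of 502 reads in untreated libraries, at least 32.1-fold higher. This is the one site of the 7 with C, not T, before the edited base. The 2 IgG libraries differed here, at 11.5 and 4.78%, and both were above 0.

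Rian, an imprinted non-coding RNA of the Dlk1-Meg3 region, had 29 of 174 and 46 of 233 edited reads in IgG libraries, against 0 of 166 and 0 of 154 reads in untreated libraries. At 16.7 and 19.7% it was the one site of the 7 whose IgG levels were above its anti-G3BP1 levels of 8.42 and 15.8%. Mest, an imprinted gene of the mesoderm and brain, had 11.2 and 7.06% in IgG libraries and 0% in both untreated libraries. Nme1, a nucleoside diphosphate kinase, had 7.46 and 8.49% in IgG libraries and 0% in both untreated libraries.

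**Figure D3:**
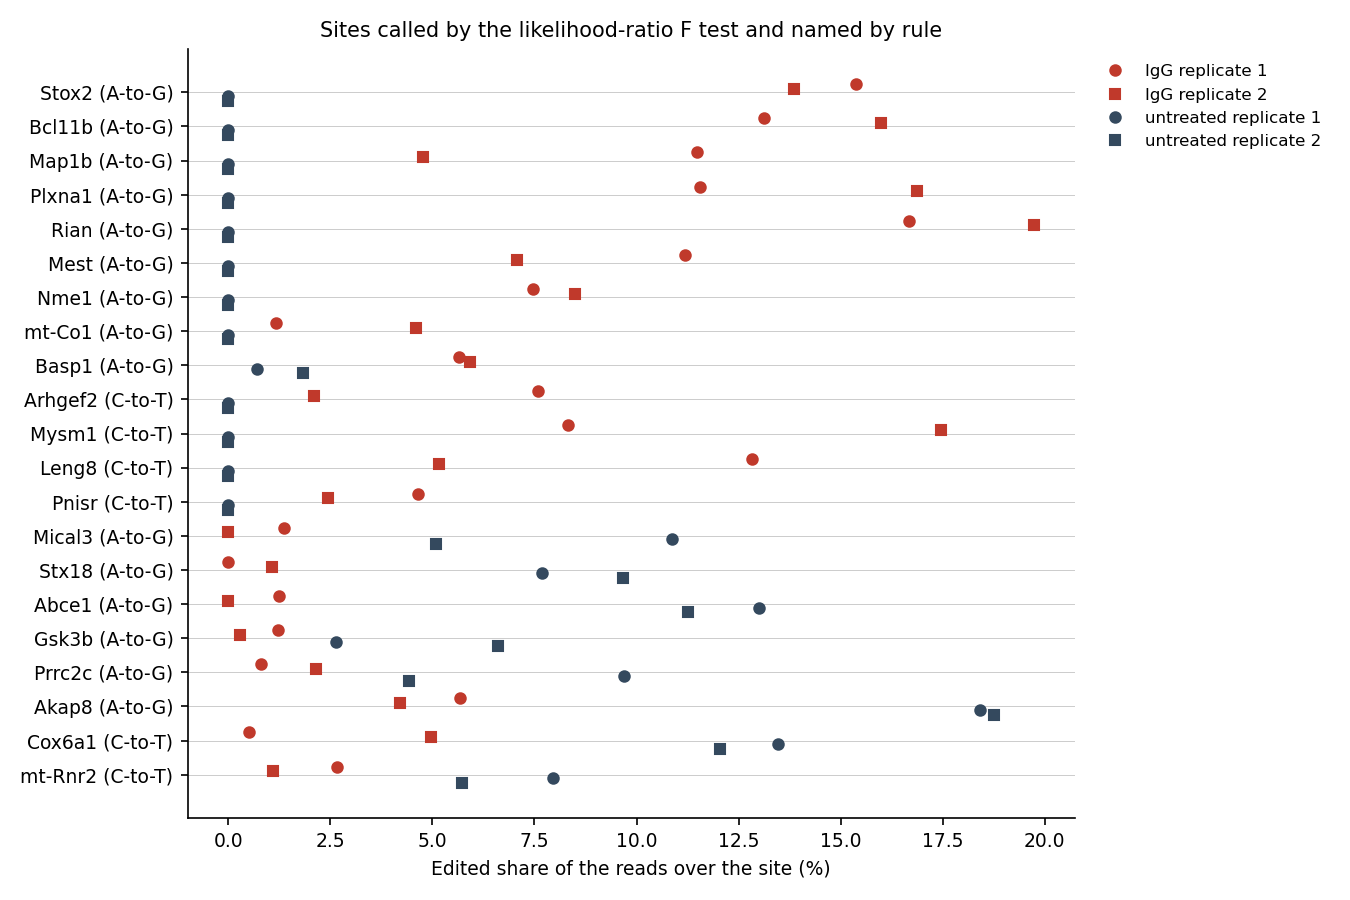
Edited share of the reads over each named site, in %, for the 4 libraries; the edit type stands beside the gene. The 9 A-to-G sites at the top lie higher in both IgG libraries, with untreated libraries at 0 for all but Basp1, and the 8 sites at the bottom lie lower in IgG libraries.

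The 90 A-to-G sites called higher lay in 85 genes. Of the 90, 88 (97.8%) were anti-G3BP1-listed, against 33.6% of all tested A-to-G sites, so the 7862 tested A-to-G sites that are anti-G3BP1-listed are the closer background. A T stood before the edited base at 63 of the 90 (70.0%), an A at 21, a C at 6 and a G at 0. The share with T was 34.2% of the listed sites tested and 24.4% of all tested, and the share with G was 16.6% of the listed sites tested and 22.1% of all tested. A G followed at 52 of the 90 (57.8%), close to the 56.5% of the listed sites tested. 3′ UTRs held 72 of the 90 (80.0%), against 76.3% of the listed sites tested. Their mean level in IgG libraries had a median of 5.49%, and their mean level in anti-G3BP1 libraries had a median of 12%.

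Of these 90 sites, 14 were in coding sequence, 12 of them in nuclear genes, and 10 of the 12 would change an amino acid. In Stmn2, a tubulin-binding protein of growing axons, the K75E site had 12 of 292 and 11 of 270 edited reads in IgG libraries, against 0 of 336 and 0 of 276 reads in untreated libraries. In Srrm2, a splicing factor, the R495G site had 15 of 150 and 14 of 151 edited reads in IgG libraries, against 0 of 222 and 0 of 142 reads in untreated libraries. Both sites were at 0 in each untreated library.

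Among the 10 were sites in tubulin genes, namely Tuba1a Y282C, Tubb2a K392R and Tubb3 T214A. The share of all tested coding sites that lie in tubulin genes was not computed. Some of these sites were deep, with 1425 and 1475 reads at Tuba1a and 630 and 661 at Tubb3 in untreated libraries. The part of depth in these calls was not tested. The Tubb2a site had 2.65 and 2.30% in IgG libraries, against 0.238 and 0% in untreated libraries. The Tubb3 site had 6.49 and 0% in IgG libraries and 0% in both untreated libraries, so it rests on the first IgG library alone. It was at 0% in both anti-G3BP1 libraries too, so its listing rests on the same reads that are compared. Tubulin paralogs are nearly identical in places, so reads at these sites may come from another copy. The other sites were Map1b K419R, Hsp90ab1 N389S, Mycbp2 R1789G, Pnisr K730R and Ccni K274R.

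Of the 6 A-to-G sites called lower in IgG libraries, 2 had A and 4 had G before the edited base. Of the listed A-to-G sites tested, 38.4% had A there and 16.6% had G. With the F test limited to listed sites, 9 were called lower, of which 1 had C and 1 had T there. A preference for these bases was not tested. Mical3, a flavoprotein that acts on actin, had 1.36 and 0% in IgG libraries, against 10.9 and 5.08% in untreated libraries. Stx18, a syntaxin of the endoplasmic reticulum, had 0 and 1.08% in IgG libraries, against 7.69 and 9.68% in untreated libraries. Akap8, a nuclear anchoring protein for protein kinase A, had 5.68 and 4.21% in IgG libraries, against 18.4 and 18.8% in untreated libraries. In each case both IgG libraries were below both untreated libraries. Abce1, Gsk3b and the Prrc2c R478G site showed the same order, with untreated levels of 2.64 to 13% and IgG levels of 0 to 2.15%.

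C-to-T calls were few. Of the 6 sites called higher, 0 had A and 4 had G before the edited base. Of all C-to-T sites tested, 25.6% had A there and 39.5% had G. With the F test limited to listed sites, 14 were called higher, of which 2 had A and 8 had G there. Of the listed C-to-T sites tested, 38.9% had A and 32.8% had G. The called C-to-T sites thus did not show the larger gap after A seen in the pooled shares, and a base preference was not tested. Mysm1, a histone deubiquitinase, had 8.33 and 17.5% in IgG libraries and 0% in both untreated libraries. Arhgef2, Leng8 and Pnisr were also at 0 in both untreated libraries. The Arhgef2 site, with 6 of 79 and 2 of 95 edited reads in IgG libraries, was at 0% in both anti-G3BP1 libraries too. Its listing thus rests on the same IgG reads that are compared. Cox6a1, a subunit of cytochrome c oxidase, was lower, with 0.513 and 4.98% in IgG libraries against 13.5 and 12.1% in untreated libraries at its P104S position. Its expression moved the other way, at 908 and 932 TPM in IgG libraries against 376 and 498 TPM in untreated libraries (log2 1.09, SE 0.18, adjusted p = 0.0381, limma).

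Summed over each gene, 7913 genes with 50 or more reads in each library were tested. Editing of both types together was higher in IgG libraries for 2 genes (0.0253%) at an adjusted p under 0.05 and lower for 0. At an unadjusted p under 0.05, 522 were higher (6.6%) and 15 lower (0.19%), and the median log2 odds ratio over all genes was 0.72, so single genes are read against that shift. Measured against the median change, 0 genes were called. The F test called 10 genes higher (0.126%), and a fit limited to the 5351 genes with 200 or more reads called 73 higher (1.36%) and 1 lower, mt-Rnr2. No gene was called by the main or the F test with any 1 library left out.

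Map1b had an edited share of 0.823 and 0.851% over 151 sites in IgG libraries, against 0.246 and 0.245% in untreated libraries. The log2 odds ratio was 1.77 with an SE of 0.26 (adjusted p = 0.0389, quasi-binomial model). The difference was in A-to-G editing, at 1.39 and 1.17% in IgG libraries against 0.231 and 0.303% in untreated libraries. C-to-T editing of Map1b was 0.257 and 0.520% in IgG libraries and 0.259 and 0.189% in untreated libraries, where the groups overlapped. The 3′ UTR site shown above held 28.2% of the edited A-to-G reads of Map1b in IgG libraries.

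Gpm6a encodes a membrane glycoprotein of neurites. Its edited share over 40 sites was 1.30 and 1.48% in IgG libraries, against 0.209 and 0.212% in untreated libraries, with a log2 odds ratio of 2.73 and an SE of 0.41 (adjusted p = 0.0389, quasi-binomial model). A single site held 50.5% of its edited A-to-G reads in IgG libraries. Expression of neither gene was called: Map1b had 1511 and 1488 TPM in IgG libraries against 1569 and 1310 TPM in untreated libraries, and Gpm6a had 797 and 795 TPM in IgG libraries against 647 and 706 TPM in untreated libraries.

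The other genes called by the F test were Snrnp200, Rufy3, Plxna1, Nme1, St8sia4, Lonrf2, Dcc and mt-Co1. Rufy3, a protein of axon formation, had 1.52 and 1.66% in IgG libraries, against 0.185 and 0.331% in untreated libraries. Plxna1 had 2.92 and 4.30% in IgG libraries, against 0.156 and 0.389% in untreated libraries. Dcc, the netrin receptor of growing axons, had 1.08 and 1.31% in IgG libraries, against 0.115 and 0.257% in untreated libraries. Their groups did not overlap. In Nme1, 5 of 11 sites are shared with another annotated gene, so its reads cannot be given to it alone.

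Taken by type, no gene was called for A-to-G among 6146 tested or for C-to-T among 6827 tested by the quasi-binomial model. Unadjusted p-values under 0.05 in the higher direction numbered 407 for A-to-G (6.62%) and 122 for C-to-T (1.79%). The median log2 odds ratio was 0.90 for A-to-G and 0.51 for C-to-T. Lower values at an unadjusted p under 0.05 numbered 11 for A-to-G (0.179%) and 14 for C-to-T (0.205%). The F test called 24 genes for A-to-G (0.39%) and 0 for C-to-T, edgeR called 40 and 0, and limma on the empirical logit called 0 and 0. Among the 24 were Mest at 3.20 and 2.03% in IgG libraries against 0.133 and 0.114% in untreated libraries, and Slc1a2, the main glutamate transporter of astrocytes, at 1.61 and 1.84% in IgG libraries against 0.195 and 0.240% in untreated libraries.

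Genes of the neuronal cytoskeleton, a list of tubulins, microtubule-associated proteins and neurofilaments, showed the gap between the edit types. Of 28 members tested for A-to-G, 13 were higher at an unadjusted p under 0.05, beside 6.62% of all genes, with a median log2 odds ratio of 1.48 beside 0.90 over all genes. Of 28 tested for C-to-T, 0 were, with a median of -0.06 beside 0.51. Pooled over their sites, A-to-G was 0.790 and 0.917% in IgG libraries against 0.266 and 0.266% in untreated libraries. Pooled C-to-T was 0.431 and 0.403% in IgG libraries against 0.279 and 0.273% in untreated libraries, so over all kept sites the pooled share and the median over genes differ in sign for C-to-T. At anti-G3BP1-listed sites the pooled C-to-T share was 0.123 and 0.183% in IgG libraries and 0.123 and 0.116% in untreated libraries, where the groups overlapped. The pooled A-to-G share at those sites was 0.714 and 0.882% in IgG libraries, against 0.167 and 0.185% in untreated libraries. The cytoskeleton, axon guidance, synaptic, RNP granule, nuclear non-coding RNA and A-to-I lists were covered more deeply than other genes, with list medians of 898 to 4459 reads a gene in a library, against 473 over all genes, and the part of depth in their counts was not tested.

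For both types together, 1 of 29 cytoskeleton genes was called over all genes, Map1b, and 12 of 29 had an unadjusted p under 0.05. Mapt, the tau protein, had 1.06 and 0.723% in IgG libraries, against 0.244 and 0.313% in untreated libraries. Tubb3, the neuronal beta-tubulin, had 0.757 and 0.518% in IgG libraries, against 0.134 and 0.121% in untreated libraries. Stmn2, Ina and Tuba1a also had both IgG libraries above both untreated ones. Covering reads at the sites of this list were fewer in IgG libraries: 42400 and 40793 at A-to-G sites, against 97532 and 74532 in untreated libraries. Its summed expression was 24495 and 26500.0 TPM in IgG libraries against 28888 and 31049 TPM in untreated libraries, with 0 of 30 members called, and the part of read depth in the editing result was not tested.

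Among axon guidance genes, 5 of 28 tested were higher at an unadjusted p under 0.05, beside 6.6% of all genes, with a median log2 odds ratio of 0.66, and their pooled A-to-G share was 0.775 and 1.12% in IgG libraries against 0.304 and 0.285% in untreated libraries. Among synaptic genes, 8 of 33 were, with a median of 0.65. Sv2a, a synaptic vesicle glycoprotein, had 1.47 and 2.14% in IgG libraries against 0.301 and 0.603% in untreated libraries. For axon guidance and synaptic genes the medians were below the 0.72 of all genes.

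Proteins of stress granules and other RNP granules, which include G3BP1, the antibody target in other libraries of the series, were tested at 23 genes. For 5 of them the unadjusted p was under 0.05 in the higher direction, beside 6.6% of all genes, and the median log2 odds ratio was 0.97, beside 0.72 over all genes. Pabpc1, the cytoplasmic poly(A)-binding protein, had 0.733 and 1.30% in IgG libraries, against 0.284 and 0.0739% in untreated libraries. G3bp1 had 0.534 and 0.809% in IgG libraries, against 0.260 and 0.0705% in untreated libraries (log2 odds ratio 2.07, adjusted p = 0.542, quasi-binomial model). The granule genes did not pass the test over all genes.

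Malat1, a nuclear non-coding RNA, had 0.300 and 0.297% in IgG libraries, against 0.240 and 0.246% in untreated libraries. Its A-to-G share was 0.219 and 0.311% in IgG libraries and 0.287 and 0.584% in untreated libraries, where the groups overlapped. Over the 11 nuclear non-coding RNAs tested, 3 were higher and 1 lower at an unadjusted p under 0.05, beside 6.6 and 0.19% of all genes. Their median log2 odds ratio of 0.74 was near the 0.72 of all genes. Rian was one of those higher, at 1.11 and 1.5% in IgG libraries against 0.386 and 0.628% in untreated libraries.

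**Figure D4:**
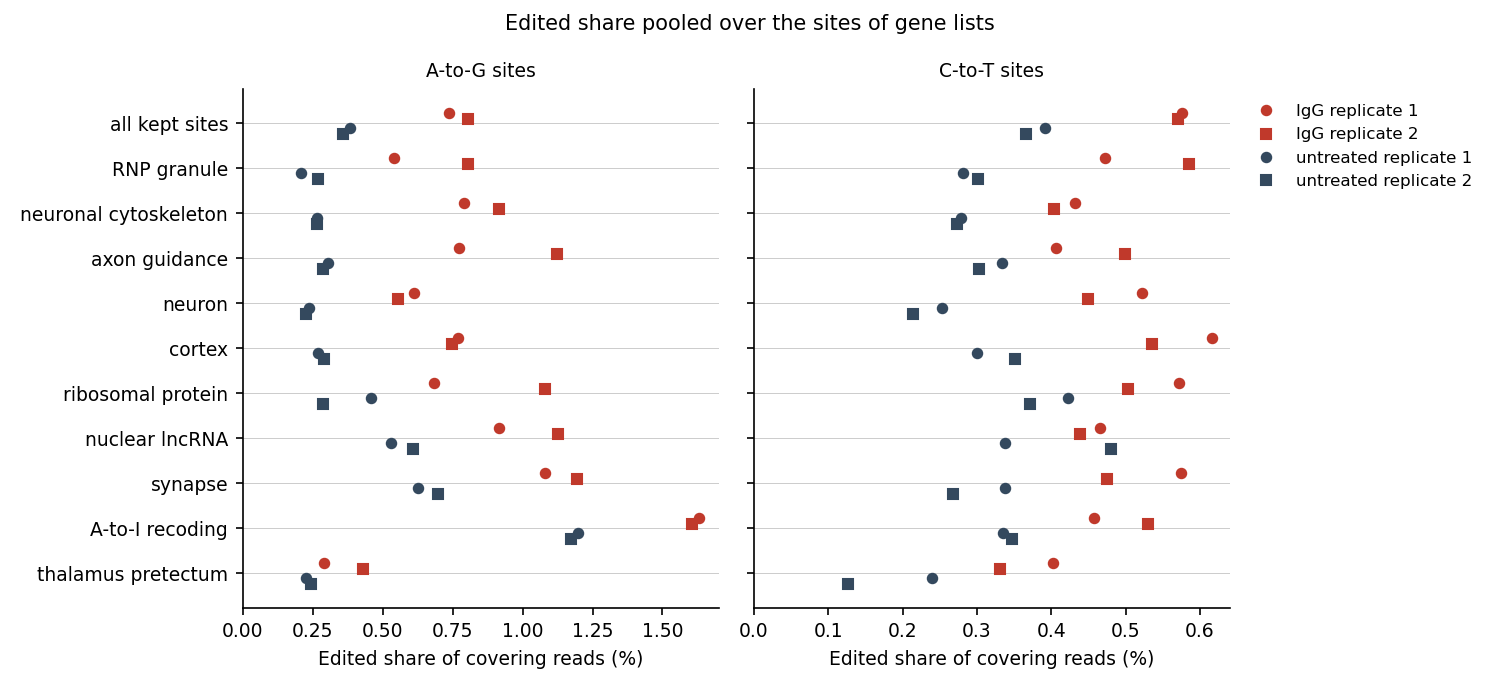
Edited share of covering reads, in %, pooled over the sites of each gene list for A-to-G (left) and C-to-T (right); each point is 1 library, and the horizontal scales differ. At A-to-G sites both IgG libraries lie above both untreated libraries in each list shown, with neuronal cytoskeleton at 0.790 and 0.917% against 0.266 and 0.266%.

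Sites that cells edit themselves serve as a check on the untreated level. The glutamine-to-arginine site of Gria2, which sets the calcium permeability of AMPA receptors, is edited by endogenous ADAR2 in nearly all messages of mature neurons. It is shown with the arginine-to-glycine site of the same gene, again with the edited adenosine and its neighbours in capitals, on the minus strand of mm10.
Gria2 Q607R, chr3:80706912: gcctttatgCAGcaaggatgc
Gria2 R764G, chr3:80692286: atcctcattAAGaaatgcggt

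At Q607R, 44 of 52 and 26 of 29 reads were edited in IgG libraries, against 40 of 48 and 39 of 49 reads in untreated libraries. The levels were 84.6 and 89.7% in IgG libraries and 83.3 and 79.6% in untreated libraries, and the Wilson intervals of all 4 libraries overlapped, with bounds from 66.4 to 96.4%. The difference did not pass the test (adjusted p = 0.771, quasi-binomial model). At R764G, 26 of 78 and 33 of 126 reads were edited in IgG libraries, against 30 of 155 and 19 of 125 reads in untreated libraries. Both IgG libraries were higher, at 33.3 and 26.2% against 19.4 and 15.2% in untreated libraries, and the log2 odds ratio of 0.94 with an SE of 0.33 did not pass the test (adjusted p = 0.771).

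Over 25 tested genes with known A-to-I sites in brain, 1 was higher at an unadjusted p under 0.05, beside 6.6% of all genes, with a median log2 odds ratio of 0.62 beside 0.72. For A-to-G alone, 1 of 21 was higher at that threshold, beside 6.62% of all genes, with a median of 0.21 beside 0.90. The counts and the medians were thus no higher than over all genes. The pooled A-to-G share of the list was 1.63 and 1.60% in IgG libraries, against 1.20 and 1.17% in untreated libraries. That was the highest untreated level among the lists plotted. Summed over Gria2, the share was 1.92 and 2.01% in IgG libraries against 1.36 and 1.77% in untreated libraries (log2 0.37, adjusted p = 0.701).

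Expression of the deaminases themselves was not called. Adarb1, which encodes ADAR2, had 43.4 and 37.3 TPM in IgG libraries, against 24.8 and 19.2 TPM in untreated libraries (log2 0.85, SE 0.20, adjusted p = 0.0659, limma). Adar, which encodes ADAR1, had 41.8 and 43.5 TPM in IgG libraries, against 51.9 and 45.4 TPM in untreated libraries (adjusted p = 0.465). Apobec1 had 1.48 and 0.885 TPM in IgG libraries, against 2.78 and 4.40 TPM in untreated libraries (adjusted p = 0.19). For Adarb1 both IgG libraries were higher, and the part of that difference in A-to-G editing was not tested.

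Expression differed between the groups in genes of brain regions and of dividing cells. Of 22290 genes that reached 1 TPM in 2 or more libraries, limma on log2(TPM + 1) called 626 higher (2.81%) and 694 lower (3.11%) in IgG libraries. The median log2 change over all genes was 0.01. Each expression call below rests on 2 libraries a group. A fit without 1 of them has a single library in a group, so it cannot show which library a call depends on. In bulk RNA, fewer cells of a type and less RNA per cell cannot be told apart.

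DNA replication and mitosis genes were lower in IgG libraries for 16 of 18 members, with a median log2 change of -1.72. Top2a, which relaxes DNA during replication and mitosis, had 30.7 and 34.2 TPM in IgG libraries, against 125 and 126 TPM in untreated libraries (log2 -1.92, SE 0.13, adjusted p = 0.0151, limma). Mki67, a marker of cycling cells, had 25 and 23.2 TPM in IgG libraries, against 101 and 95.3 TPM in untreated libraries. In all 18 genes both IgG libraries were below both untreated libraries, beside 28.4% of all genes tested.

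Radial glia and progenitor genes were lower for 5 of 14, with a median of -0.93, and the other 9 were not called. Slc1a3, a glutamate transporter of radial glia, had 17.6 and 15.8 TPM in IgG libraries, against 86.2 and 90.0 TPM in untreated libraries. Vim, an intermediate filament of progenitors and other cells, had 162 and 165 TPM in IgG libraries, against 426 and 530 TPM in untreated libraries. Eomes, a transcription factor of intermediate progenitors, fell to 6.68 and 3.38 TPM in IgG libraries, against 73.8 and 97.3 TPM in untreated libraries (log2 -3.89, SE 0.33).

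Cerebral cortex genes were lower for 7 of 14 and higher for 1. Neurod6, a factor of cortical pyramidal neurons, had 58.0 and 32.5 TPM in IgG libraries, against 509.8 and 497.5 TPM in untreated libraries (log2 -3.50, SE 0.28, adjusted p = 0.0201, limma). Fezf2, a factor of deep-layer projection neurons, had 21.4 and 18.8 TPM in IgG libraries, against 100.3 and 117 TPM in untreated libraries. In both genes the IgG libraries were below both untreated libraries. Emx2, a cortical patterning factor, was the member that was higher, at 67.6 and 81.0 TPM in IgG libraries against 42.0 and 38.1 TPM in untreated libraries.

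Thalamus and pretectum genes moved the other way for 5 of 12 members, with 2 lower and a median of 0.84. Tcf7l2, a factor of thalamic neurons, had 265 and 314 TPM in IgG libraries, against 57.2 and 46.0 TPM in untreated libraries (log2 2.47, SE 0.16, adjusted p = 0.0151). Lhx9 had 190 and 187 TPM in IgG libraries, against 45.9 and 40.7 TPM in untreated libraries. Nr4a2 was among those lower, at 18.1 and 19.7 TPM in IgG libraries against 126 and 133 TPM in untreated libraries. The list thus held calls in both directions.

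Hypothalamic genes were higher for 4 of 14 and lower for 1. Avp, the vasopressin precursor, had 152 and 133 TPM in IgG libraries, against 8.69 and 9.90 TPM in untreated libraries (log2 3.80, SE 0.16, adjusted p = 0.0140). Pomc, the precursor of melanocortins, had 20.4 and 33.6 TPM in IgG libraries, against 3.17 and 2.89 TPM in untreated libraries. Pmch, the precursor of melanin-concentrating hormone, was lower, at 2.68 and 8.78 TPM in IgG libraries against 34.3 and 41.3 TPM in untreated libraries.

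In midbrain and hindbrain genes 3 of 13 were higher and 1 lower. En2, which patterns the midbrain and hindbrain, had 137 and 155 TPM in IgG libraries, against 28.1 and 25.7 TPM in untreated libraries. Th, the first enzyme of dopamine synthesis, was lower, at 17.2 and 15.2 TPM in IgG libraries against 41.0 and 57.8 TPM in untreated libraries. Foxa1, a midbrain floor plate factor outside these lists that was among the largest changes, had 2.06 and 1.26 TPM in IgG libraries against 44.7 and 29.2 TPM in untreated libraries.

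Ganglionic eminence and interneuron genes were split, with 3 of 14 higher and 4 lower. Sst, the somatostatin precursor, had 1112 and 1069 TPM in IgG libraries, against 295 and 391 TPM in untreated libraries. Npy, the neuropeptide Y precursor, had 375 and 355 TPM in IgG libraries, against 118 and 141 TPM in untreated libraries. Dlx1, a factor of interneuron progenitors, was lower, at 110 and 104 TPM in IgG libraries against 218 and 199 TPM in untreated libraries.

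**Figure D5:**
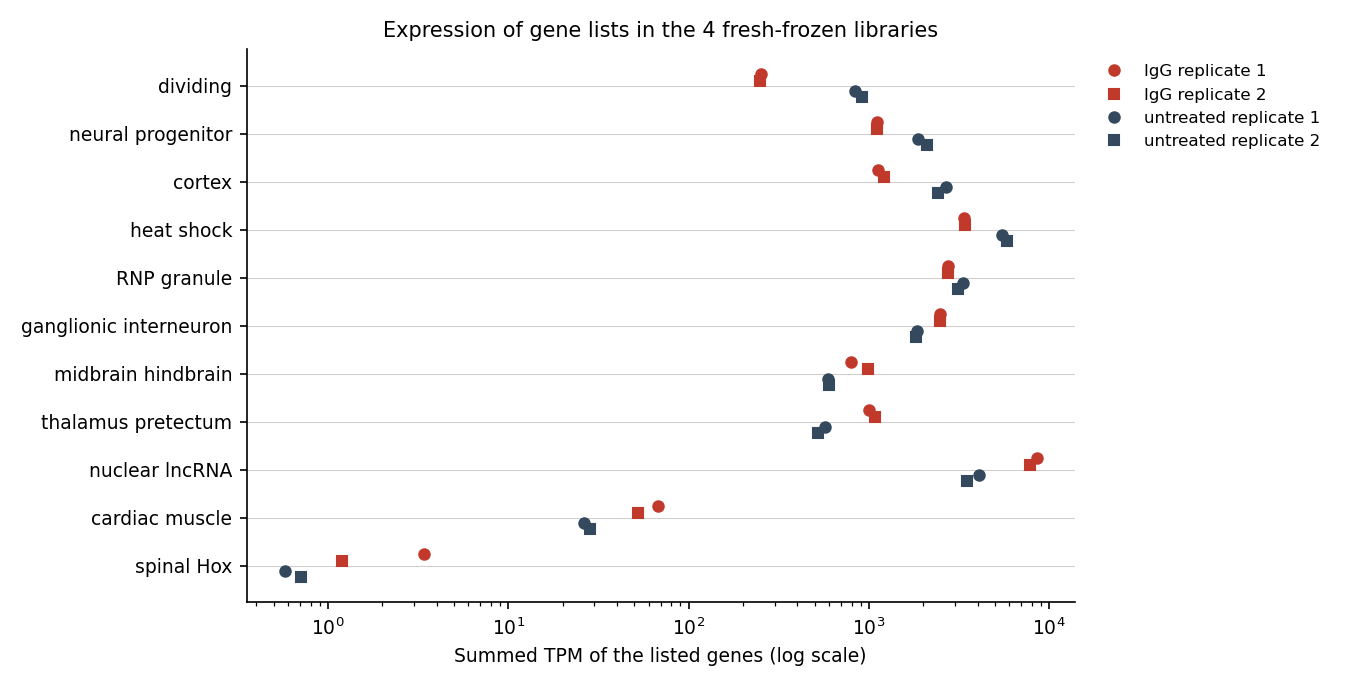
Summed TPM of the genes of each list on a log scale, 1 point per library. The dividing-cell list lies at 252.8 and 248.9 TPM in IgG and 832.1 and 915.2 TPM in untreated libraries, and the nuclear non-coding RNA list lies the other way.

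Nuclear long non-coding RNAs were higher in IgG libraries for 5 of 13, with a median of 0.54, and none was lower. Malat1 had 3411 and 2813 TPM in IgG libraries, against 1290.4 and 1014 TPM in untreated libraries (log2 1.44, SE 0.22, adjusted p = 0.0351). Meg3, an imprinted non-coding RNA, had 2543 and 2579 TPM in IgG libraries, against 1122 and 1049 TPM in untreated libraries. Over all biotypes, long non-coding RNAs were higher for 158 and lower for 64 of 4111, and pseudogenes were higher for 150 and lower for 81 of 3120. Protein-coding genes leaned the other way, with 317 higher and 548 lower of 15050. Over all genes the shares were 2.81% higher and 3.11% lower. The first IgG library stood apart in the number of genes at 1 TPM or more, with 25508, against 21204 in the second IgG library and 21514 and 20770 in untreated libraries. The part of that library in the non-coding and pseudogene counts was not tested.

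The largest single increases were pseudogenes, whose reads can come from their parent genes. The processed pseudogene Gm2059 had 158 and 119 TPM in IgG libraries, against 0 and 1.66 TPM in untreated libraries. Gm27202, a long non-coding RNA, was listed at 0 TPM in both IgG libraries and had 46.5 and 42.8 TPM in untreated libraries. Such values depend on how reads with several matches were placed.

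RNP granule genes were lower for 4 of 24 and higher for 1. Caprin1, a partner of G3BP1, had 99.1 and 89.0 TPM in IgG libraries, against 217 and 204 TPM in untreated libraries (log2 -1.16, SE 0.12, adjusted p = 0.0255). Pabpc1, Ddx3x and G3bp2 were also lower. G3bp1 itself was not called, at 92.7 and 103 TPM in IgG libraries against 103 and 117 TPM in untreated libraries (adjusted p = 0.476).

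Heat shock genes had 4 members lower and none higher. Hsp90ab1, a constitutive chaperone, had 1607 and 1728 TPM in IgG libraries, against 3670 and 3739 TPM in untreated libraries. Ribosomal protein genes were lower for 3 of 74 and higher for 0, a share near the 3.11% of all genes that were lower. Astrocyte genes were lower for 3 of 8, with a median of -0.56, and oligodendrocyte genes were lower for 2 of 10 and higher for 1. Neuron, microglia, meningeal and endothelial lists had 0 members called in either direction.

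The editing and the expression comparison use the same libraries, and the expression of region and progenitor genes differed between the groups. The summed TPM of the cortex list was 1119 and 1213 in IgG libraries, against 2673 and 2408 in untreated libraries. The summed TPM of the thalamus and pretectum list was 998 and 1086 in IgG libraries, against 574 and 522 in untreated libraries. The part of these differences in the edited shares was not tested. At the sites of the cortex and thalamus lists themselves, A-to-G was higher in both IgG libraries than in both untreated libraries.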

How the data were processed

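Tables of both editing and expression were used, for libraries labelled fresh-frozen E10.5 embryo. The editing table gives, per site, counts of covering and of edited reads, deposited by the authors as whole numbers; how sites were chosen is not given in the sources used here. The expression table gives TPM values, deposited by the authors, so the read depth behind expression is unknown. The submitters' processing notes name featureCounts 2.0.1, Subread, GATK 4.5.0.0, Picard 3.1.1, HISAT2 2.2.1 and BWA 0.7.17, with the builds mm10 and GRCm38, and no order or settings. Mapping, base calling and duplicate removal set which mismatches count as edited.

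Repeated lines (104) were removed, and sites with 10 or more reads in each of the 4 libraries were kept: covering reads summed to 5919529 and 5998466 in IgG libraries and 7764377 and 6937110 in untreated libraries, a mean of 55.4 and 56.1 reads a site against 72.6 and 64.9. Regions, strands and flanking bases came from GENCODE M21, which matched 244468 of 244819 lines of sites and genes. Edited shares were tested by exact two-sided permutation. Genes (50 or more reads in each library) and sites entered a quasi-binomial logistic model, with 0.25 reads added and Benjamini-Hochberg adjustment at 0.05. The dispersion was moderated over all genes or sites by limma 3.58.1 and kept at 1 or more. Changes are log2 odds ratios. Expression was tested with limma on log2(TPM + 1) in genes with 1 TPM in 2 libraries, which understates the change of low genes. R 4.3.3, edgeR 4.0.16 and Python 3.11.15 were used.

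On simulated data with no spread beyond read counting, the gene model recovered 79% of genes changed by 2 on the log2 scale. The site model recovered 13.5% of sites changed by 3, against 51.5% by the F test. With an overdispersion of 0.002 the gene model and its F test both recovered 0%. For expression 100% of genes changed by 2 were recovered, and 12 unchanged genes were called. Changes were planted only in genes and sites above a minimum of edited reads, and for expression in genes above a minimum level. Recovery below those minimums was not simulated.

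The members, the 35 gene lists and the tests were chosen with earlier results of these data known. Named genes and sites were those with the largest change among called ones (12 genes, 8 sites per edit type, each direction, groups not overlapping; 200 reads a gene, 30 reads a site, 10 TPM), up to 4 members of each list with the smallest p, and Adar, Adarb1, Apobec1, G3bp1, Gria2, Blcap, Malat1 and Tuba1a. Genes called by the F test and coding sites were named after their values were seen. Alternatives changed depth minimums, filters, pseudocount, model, site choice and libraries. Some single genes are not reported here.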

Additional observations from a re-analysis of the deposited data

Results flagged for a closer look

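The A-to-G difference ran in opposite directions in the libraries labelled fresh-frozen and in the fixed E10.5 embryo. In the fixed embryo the A-to-G share over 14078 sites was 0.454 and 0.513% in IgG libraries, against 0.540 and 0.805% in untreated libraries, so both IgG libraries were lower, with a log2 ratio of -0.45. In the fresh-frozen libraries both IgG libraries were higher, with a log2 ratio of 1.06. The difference between the ratios was 1.51 on the log2 scale. The exact two-sided permutation test within each table gave p = 0.0556 over 36 arrangements, the smallest value they allow, so it could not pass 0.05. For C-to-T the difference was 0.83 (p = 0.111, exact permutation) and for both types together 1.11 (p = 0.111, exact permutation). The mean depth a site at fixed-embryo A-to-G sites was 201 and 132 reads in IgG libraries and 119 and 33.3 reads in untreated libraries, and the part of this gap in the difference was not tested.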

How the results depend on the processing

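The log2 ratio of the overall edited share, 0.81, was 0.95 with 50 reads a site and 1.22 at sites chosen by the anti-G3BP1 libraries. The A-to-G ratio, 1.06, was 1.29 with 50 reads a site, 0.94 as a mean of single-site shares and 1.63 at anti-G3BP1-chosen sites. With 1 library left out these 2 ratios ran over 0.77 to 0.86 and 0.995 to 1.12, and the C-to-T ratio of 0.60 over 0.55 to 0.65. C-to-T in non-coding exons had -0.42 at anti-G3BP1-chosen sites.

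The 2 genes called for both edit types together became 0 with 20 reads a site, with limma on the empirical logit, against the median change, with single edited reads set to 0, without sites edited in 50% or more, and at sites with 1 alternative allele. They became 1 at anti-G3BP1-chosen sites, 10 by the F test, 21 with all 6 libraries in the fit, 59 by edgeR and 74 with 200 reads a gene. The 0 genes called for A-to-G became 3 with 6 libraries, 5 with 200 reads a gene, 10 with 20 reads a gene, 24 by the F test and 40 by edgeR, and C-to-T gave 0 in each setting tried. The 2 sites called became 0 with 50 reads a site and 105 by the F test, which called 205 at anti-G3BP1-chosen sites. The 1320 expression calls became 686 with no filter, 780 with a pseudocount of 0.1, 2486 with 5 TPM in 2 libraries and 2898 with 6 libraries. Leaving out any 1 library gave 0 calls for genes, for sites and for expression, under the F test too. The causes were not tested. A fit without 1 library has a single library in a group, so its loss of calls cannot show which library a call depends on.

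The replicate number as a block left 0 genes for editing, 1 site and 0 genes for expression. Deviations of same-numbered libraries had a correlation of -0.0060 for editing and 0.0032 for expression. For editing, replicates themselves correlated at 0.169 in IgG and 0.255 in untreated libraries. Such values cannot show whether same-numbered libraries share an embryo, a litter or a batch, which the labels do not say.

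Of 49 named genes for expression and 21 named sites, 0 changed direction in 538 and 229 alternatives. Many of these were named for a large change and groups that do not overlap. Leaving out a library cannot reverse such items, so the lack of reversals does not show that they are stable. Of 33 named genes for editing, 1 did, Gria2, at -0.36 against the median change and -0.019 at anti-G3BP1-chosen sites.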

Other observations

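The counts of edited reads a site were uneven. In IgG libraries 3512 and 3630 kept sites had 1 edited read and 12349 and 13309 had 2, and in untreated libraries 3603 and 3170 sites had 1 and 10134 and 8621 had 2. Sites with 2 edited reads thus outnumbered sites with 1 in all 4 libraries.

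Edited shares of 50% or more in a library were seen at 36 A-to-G sites, 13 of them in pseudogenes, and at 16 C-to-T sites, 12 of them in pseudogenes.

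Transcripts with C-to-U sites attributed to APOBEC1 in other mouse tissues were tested at 12 genes. Their pooled C-to-T share was 0.388 and 0.443% in IgG libraries, against 0.260 and 0.288% in untreated libraries. For C-to-T, 1 of 12 was higher at an unadjusted p under 0.05 (quasi-binomial model), beside 1.79% of all genes. Their median log2 odds ratio of 0.53 was near the 0.51 of all genes. At anti-G3BP1-listed sites this share was 0.167 and 0.118% in IgG libraries and 0.157 and 0.0880% in untreated libraries, where the groups overlapped. Their pooled A-to-G share was 0.638 and 0.960% in IgG libraries, against 0.118 and 0.240% in untreated libraries.

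Oxt, the oxytocin precursor, had 11.7 and 5.57 TPM in IgG libraries and was listed at 0 TPM in both untreated libraries. Nppa, an atrial natriuretic peptide gene, had 12.6 and 11.4 TPM in IgG libraries, against 2.66 and 1.93 TPM in untreated libraries, and the summed TPM of the heart and skeletal muscle list was 67.2 and 52.4 in IgG libraries, against 26.2 and 28.4 in untreated libraries.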
